A study of Mus musculus with 18 samples.

Results

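The genes described here are 36 mouse genes of the interferon response and of peptide presentation by class I molecules, chosen by name. Each was read at the probe set that carries its symbol alone and has the highest mean over the 18 liver arrays. On this rule 33 of the 36 genes were measured, among 18193 genes with such a probe set in the series, and all 33 passed the filter on low signal. Isg15 and Tgtp1 lay only on probe sets that also carry another gene, and no probe set of Ifi44 was found. The arrays (Affymetrix Mouse430_2) hold total RNA of male liver in 6 groups of 3: Hmgn1+/+ (wild type) and Hmgn1-/- (knockout), each taken without injection at 4 weeks, or at the 12-week point after saline or after N-nitrosodiethylamine (DEN). Mice aged 4 weeks received DEN, which the liver converts to a DNA-alkylating form, at a dose of 10 µg/g. Whether the 12 weeks run from birth or from the injection is not settled by the labels. Both genotypes descend from a cross of heterozygotes and were then bred apart as homozygous lines. Whether the arrays of a group stand for separate animals is not stated, so the p-values may measure technical spread.

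Interferons are cytokines that bind receptors on the cell surface and signal through JAK kinases. A complex that holds STAT2 and IRF9 then binds the interferon-stimulated response element (ISRE), while the GAS element serves mainly the response to interferon gamma. Their targets include antiviral effectors, GTPases that attack vacuoles holding pathogens, and the chemokines CXCL9 and CXCL10, which draw T cells and NK cells through the receptor CXCR3. Interferon gamma also induces the immunoproteasome subunits PSMB8, PSMB9 and PSMB10. These cut peptides that the transporter TAP1 and TAP2 and the chaperone tapasin (TAPBP) bring to class I heavy chains paired with beta-2 microglobulin. In liver, Kupffer cells, sinusoidal endothelium and hepatocytes all express parts of this system.

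Stretches upstream of the gene start are shown for members that passed in a comparison and hold the ISRE letters (Irgm1, Igtp and B2m), for Ifit1 and Ifit3, where matches lie apart from each other, and for the stretch between Psmb9 and Tap1, both of which read lower on all knockout arrays at 4 weeks. They come from RefSeq on GRCm38.p6, run 5′ to 3′ on the gene's strand and end before the start site. Capitals mark matches to GAAANNGAAA or to its reverse complement TTTCNNTTTC, which overlap in Irgm1. The positions are chr11:48871421-48871470 on the minus strand for Irgm1, chr11:58199502-58199551 on the plus strand for Igtp and chr2:122147528-122147577 on the plus strand for B2m. Ifit1 lies at chr19:34640765-34640833 and Ifit3 at chr19:34583353-34583436, both on the plus strand.
Irgm1: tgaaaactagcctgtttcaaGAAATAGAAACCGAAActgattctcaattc
Igtp: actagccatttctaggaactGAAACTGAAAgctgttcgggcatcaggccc
B2m: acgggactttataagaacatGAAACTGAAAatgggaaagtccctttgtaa
Ifit1: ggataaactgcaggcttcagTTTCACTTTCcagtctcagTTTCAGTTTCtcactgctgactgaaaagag
Ifit3: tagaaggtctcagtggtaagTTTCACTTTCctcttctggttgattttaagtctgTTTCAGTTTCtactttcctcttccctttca

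Psmb9 and Tap1 are transcribed away from each other on chromosome 17. The 225 bases between their starts, chr17:34187331-34187555 on the plus strand, hold neither the ISRE letters nor the GAS letters TTCNNNGAA on either strand, which says nothing of binding there by looser sequences.
Psmb9 and Tap1: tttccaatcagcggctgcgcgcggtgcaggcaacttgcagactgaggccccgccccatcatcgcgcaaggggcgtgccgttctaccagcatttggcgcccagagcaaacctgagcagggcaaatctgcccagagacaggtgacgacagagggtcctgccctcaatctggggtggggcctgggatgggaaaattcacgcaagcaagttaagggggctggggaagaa

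A promoter window of 250 bases before to 50 bases after the start was found for 30 of the 36 genes. The ISRE letters were in the windows of 13 of these 30 genes (43.3%), against 3.99% of the 27025 genes with a window. The GAS letters were in 7 of the 30 (23.3%), against 9.55% of those genes. Of the 14 members that passed a test in some comparison between 2 groups, 11 had a window and 3 of those held the ISRE letters. The corresponding numbers for the 19 members that passed in none were 16 and 8.

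No difference in Hmgn1 itself was detected between the labelled genotypes. On its 3 tested probe sets the knockout minus wild-type differences ran from -0.15 to 0.06 on the log2 scale (lowest adjusted p = 0.5765), and which part of the gene the knockout lacks is not given in the sources used here. Knockout below is therefore the genotype on the label. The 6 saline arrays stood apart at the top of the signal range: the brightest probe set read 16720 to 21752 there and 46967 to 60173 on the other 12 arrays. Hepatocyte markers were about 1 log2 unit lower there on the deposited scale (DEN minus saline medians over 9 genes of 1.01 in wild type and 1.06 in knockout). After quantile normalization these medians were 0.04 in wild type and 0.08 in knockout. Differences of DEN from saline and of saline from 4 weeks are therefore given also after quantile normalization, for most members that passed. Genotype comparisons that use saline arrays are given on the deposited scale. No member passed in them after quantile normalization either. The 3′/5′ ratio of the Gapdh control probe sets, a measure of RNA integrity, was 1.13 to 2.19 in the wild type and 1.35 to 1.70 in the knockout at 4 weeks. It was 1.03 to 1.13 and 0.907 to 0.937 after DEN, and 1.19 to 1.33 and 1.21 to 1.41 after saline. This measure thus moves with the comparisons of DEN with 4 weeks and of DEN with saline. After DEN it also differs between the genotypes, without overlap. Its part in the results was not tested.

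Across the 6 groups the members moved little. The range of a member's group means had a median of 0.54 on the log2(signal + 16) scale, near the 0.51 of all 27022 tested probe sets, and Cxcl9 alone exceeded 1. The knockout after DEN held the highest group mean for 15 of the 33 members and the wild type after DEN for 8. The lowest mean was at 4 weeks for 25, of which 13 were in the knockout and 12 in the wild type. These counts were not taken over all tested probe sets, so they cannot be called particular to the members. The spread of replicates within groups, a median SD of 0.19 for the members and 0.23 for all tested probe sets, was a sizeable part of that range.

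**Figure D1:**
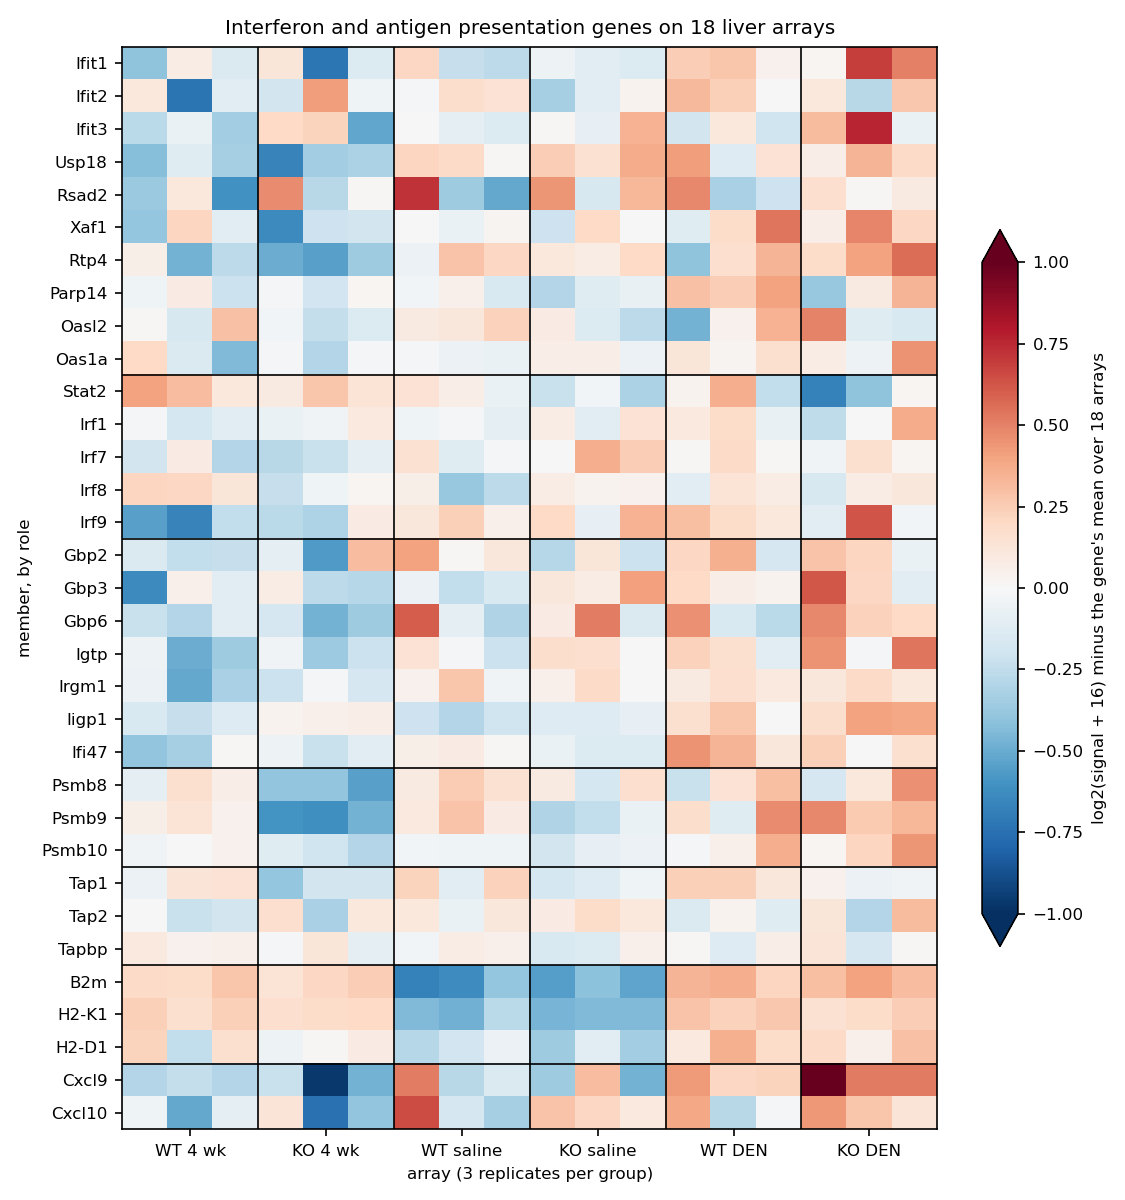
Each row is a member and each column an array, coloured by log2(signal + 16) minus the gene's mean over the 18 arrays, with roles separated by horizontal lines. The immunoproteasome rows are below their means on all 3 knockout arrays at 4 weeks, the class I chains are below theirs on all 6 saline arrays, and the arrays after DEN are mostly above.

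The first comparison asks how the genotypes differ before any injection. In the knockout at 4 weeks Psmb9, which encodes the beta-1i subunit of the immunoproteasome, fell. Psmb8 and Psmb10 had lower values on every knockout array but did not pass. Psmb9 (probe set 1450696_at) read 163.8, 174.0 and 161.4 in the wild type and 97.8, 96.7 and 108.1 in the knockout. The knockout arrays all lie far below the wild-type ones. On the log2 scale the difference was -0.64 (SE 0.13, adjusted p = 0.01184), or 1.56-fold lower. It was the only 1 of the 33 members to pass, against 2.26% of all tested probe sets (0.992% downwards). Another 3 members, Psmb8, Iigp1 and Tap1, reached an unadjusted p under 0.05, so that 4 of 33 did, against 14.9% of tested probe sets.

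Psmb8, the beta-5i subunit, read 183.9, 223.0 and 207.8 in the wild type against 146.6, 146.7 and 130.5, a difference of -0.49 (SE 0.15, adjusted p = 0.103). Psmb10, the beta-2i subunit, read 348.1, 354.9 and 368.5 against 326.2, 308.1 and 287.5, a difference of -0.21 (SE 0.11, adjusted p = 0.4002). In neither gene do the groups overlap. Tap1, the transporter subunit encoded beside Psmb9, read 94.6, 109.8 and 111.5 against 72.0, 85.4 and 85.3, again without overlap. Its difference was -0.32 (SE 0.13, adjusted p = 0.2285). Irf8, a transcription factor of myeloid cells, was the other member whose knockout arrays all lay lower (5 of 33 in all, against 8.59% of tested probe sets), with a difference of -0.26 (SE 0.16).

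The other presentation genes differed little. Tap2 differed by 0.12 and Tapbp by -0.05. The class I chains B2m, H2-K1 and H2-D1 differed by -0.02 to -0.03, with no 95% interval reaching beyond -0.26 or 0.20. Iigp1, an immunity-related GTPase, was the single member higher without overlap (10.9% of tested probe sets were). It read 6151, 5838 and 6255 in the wild type and 7005, 7091 and 7161 in the knockout, a difference of 0.22 (SE 0.08, adjusted p = 0.1606). Irf9, the DNA-binding partner of STAT2, differed by 0.32 (SE 0.17, adjusted p = 0.4008). Over all members the median difference was -0.03, beside 0.02 for all tested probe sets, and 13 of 33 differences were positive, against 53.7% of tested probe sets.

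Macrophage and Kupffer cell markers were lower in the same arrays. Of 17 markers 5 fell and 12 had an unadjusted p under 0.05, with a median of -0.53. Of all tested probe sets 0.992% fell and 14.9% had such a p. Their summed signal was 8403 to 9473 in the wild type and 5884 to 6227 in the knockout, and none of them was listed at 0. Tyrobp, a signalling adaptor of myeloid cells, fell by 1.14, and Csf1r, the receptor for macrophage colony-stimulating factor, fell by 0.53. Of 10 stellate cell markers 2 fell, Dcn by 0.53 and Acta2 by 1.35, with a median of -0.40, and their summed signal was 5144 to 5790 in the wild type and 3774 to 3915 in the knockout. Of 3 tested exocrine pancreas markers 1 rose, Cela1 by 0.76, and the sum over 7 such markers was 435.2 to 541.4 in the wild type and 766.5 to 869.6 in the knockout. The hepatocyte marker Hnf4a rose by 0.46 in the knockout (limma, adjusted p = 0.00238). The part of these cells in the Psmb9 difference was not tested. In whole liver RNA fewer cells of a type and less RNA per cell cannot be told apart. The Psmb9 call was lost without knockout replicate 1 or without knockout replicate 2 (differences of -0.69 to -0.61 and adjusted p of 0.03304 to 0.05174 over the 6 fits that leave out an array). It was lost as well without the 4-week array of highest Gapdh ratio in each genotype (-0.60, adjusted p = 0.1011).

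**Figure D2:**
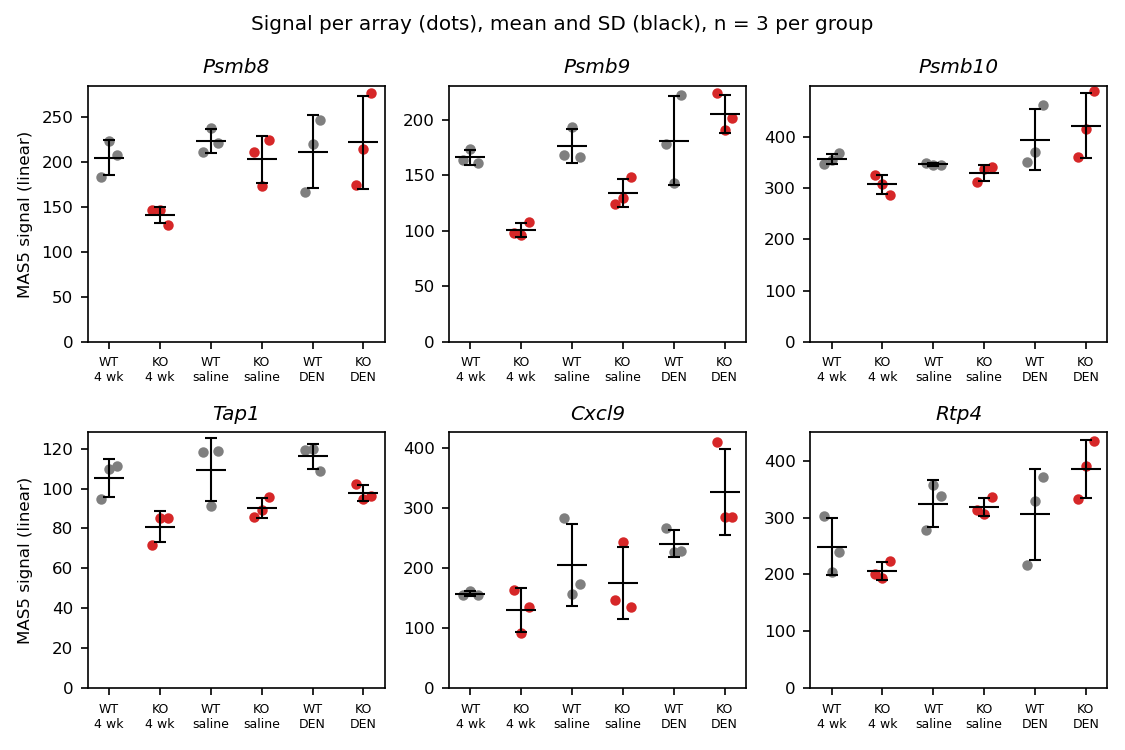
Deposited MAS5 signal of 6 members on every array (dots; grey, wild type; red, knockout), with the mean and SD of each group of 3. Psmb9 is lowest on the 3 knockout arrays at 4 weeks, between 96.7 and 108.1, and Cxcl9 is highest in the knockout after DEN, between 284.6 and 409.1.

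After saline, no member passed between the genotypes in the limma test, and 1 of 33 had an unadjusted p under 0.05. Of all tested probe sets 0.0111% passed and 5.28% had such a p. That member was again Psmb9, at 168.9, 194.1 and 166.8 in the wild type and 124.2, 129.7 and 148.9 in the knockout. Groups stood apart without overlap in 4 members downwards (Psmb9, Psmb10, Oasl2 and Ifi47, against 6.85% of tested probe sets) and in 2 upwards (Gbp3 and Iigp1, against 10.9%). The Psmb9 difference of -0.36 (SE 0.13, adjusted p = 0.9067) was smaller than at 4 weeks, and the gap between the 2 differences, fitted after the data were seen, was 0.28 (SE 0.19, adjusted p = 0.9989). Of the other genes with the smallest p, Gbp3, a guanylate-binding GTPase, differed by 0.35 and Tap1 by -0.23. Irf7, which drives interferon alpha production, and Irf8 differed by 0.20 and 0.24, and Iigp1 differed by 0.12. Their adjusted p lay between 0.9729 and 0.9921. The median over the members was below 0.01 in size, beside 0.04 for all tested probe sets.

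After DEN, the genotypes again showed no member past the threshold in the limma test, with 4 of 33 at an unadjusted p under 0.05 (0.0074% of all tested probe sets passed and 8.97% had such a p). Stat2, the STAT protein of the type I interferon signal, read 83.3, 108.7 and 65.9 in the wild type and 44.9, 57.6 and 82.6 in the knockout, a difference of -0.40 (SE 0.18, adjusted p = 0.528). The groups overlap at the highest knockout array. Ifit3, an antiviral protein, differed by 0.43 and Rtp4, a chaperone induced by interferon, by 0.35. Iigp1 differed by 0.17, and Parp14, an ADP-ribosyltransferase, by -0.30. Cxcl9 differed by 0.40 (adjusted p = 0.6142) and was the 1 member with all knockout arrays above the wild-type ones (4.51% of tested probe sets were), while Tap1 at -0.21 was the 1 member with all of them below (6.29%). Psmb9, low in the knockout at 4 weeks, read 178.6, 143.0 and 223.0 in the wild type and 224.2, 191.1 and 201.5 in the knockout after DEN. The difference was 0.18 (SE 0.13, adjusted p = 0.7303), with a 95% interval that reached up to 0.46.

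The comparison of DEN with 4 weeks asks what changed in each genotype between the young untreated liver and the later DEN-treated liver. Age and injection cannot be told apart in it. In the knockout 8 of 33 members rose and none fell in the limma test (16 at an unadjusted p under 0.05, against 23.3% of tested probe sets), against 3.53% of all tested probe sets that rose and 8.24% that passed in either direction. All 3 immunoproteasome subunits, Cxcl9, the effectors Rtp4 and Usp18 and the GTPases Igtp and Iigp1 made up the 8. The median over the members was 0.27 and 30 of 33 differences were positive, beside a median of -0.02 and 47.6% positive for all tested probe sets. The groups stood apart upwards in 16 members (11.7% of tested probe sets) and downwards in 1, Stat2 (14.4%). The knockout arrays at 4 weeks enter this comparison and the genotype comparison at 4 weeks alike, so the low Psmb9 values there count in both.

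Psmb9 rose by 0.92 (SE 0.13, adjusted p = 0.0004797), or 1.90-fold, from the knockout values at 4 weeks to those after DEN given above. Psmb8 read 146.6, 146.7 and 130.5 at 4 weeks and 174.5, 214.2 and 277.4 after DEN, a rise of 0.58 (SE 0.15, adjusted p = 0.02231). The second Psmb8 probe set, which is dimmer, differed by 0.40 (adjusted p = 0.4548). Psmb10 went from 326.2, 308.1 and 287.5 to 361.6, 415.5 and 489.4, a rise of 0.43 (SE 0.11, adjusted p = 0.02171). For all 3 subunits every DEN array is above every 4-week array, but the replicates after DEN span a wide range in Psmb8 and Psmb10. The Psmb8 difference was 0.41 and the Psmb10 difference 0.32 without knockout DEN replicate 3, where neither passed. In peptide loading none of 3 members passed: Tap1 differed by 0.23, Tap2 by 0.07 and Tapbp by -0.02. The class I chains differed by 0.01 to 0.16 and did not pass.

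Cxcl9 (probe set 1418652_at) read 163.2, 91.1 and 134.8 in the knockout at 4 weeks and 409.1, 284.6 and 284.8 after DEN. The lowest DEN array is above the highest 4-week array. Its rise of 1.24 (SE 0.21, adjusted p = 0.001812), or 2.37-fold, was the largest of the members in this comparison. The second Cxcl9 probe set, which is dimmer, differed by 0.23 (adjusted p = 0.6026). Cxcl10, the companion chemokine, read 58.7, 24.8 and 36.01 against 76.4, 66.7 and 58.9, a difference of 0.62 (SE 0.25, adjusted p = 0.1309). Its groups stand only a fraction of a signal unit apart.

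Among the antiviral effectors, Rtp4 read 201.6, 194.1 and 224.0 at 4 weeks and 333.0, 390.0 and 434.9 after DEN in the knockout. The groups are well separated, and the rise was 0.85 (SE 0.16, adjusted p = 0.003565). The second Rtp4 probe set, which is dimmer, differed by 0.38 (adjusted p = 0.3374). Usp18, the protease that removes ISG15 from proteins and dampens receptor signalling, read 77.4, 100.5 and 102.9 against 139.5, 171.7 and 153.4. Its rise was 0.64 (SE 0.15, adjusted p = 0.01058). Ifit1, which binds foreign RNA, read 91.1, 43.5 and 73.8 against 83.8, 143.4 and 123.4, with overlap, and its difference of 0.65 missed the threshold (adjusted p = 0.0537). Xaf1, a pro-apoptotic interferon target, differed by 0.60 (adjusted p = 0.05548). After quantile normalization Ifit1 and Xaf1 passed (0.69 and 0.64, adjusted p = 0.03564 and 0.03998). The remaining effectors, Ifit2, Ifit3, Rsad2, Parp14, Oasl2 and Oas1a, differed by -0.03 to 0.37.

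The GTPases all had positive differences, from 0.26 to 0.63, and 2 of 7 passed. Igtp read 384.9, 303.1 and 336.9 at 4 weeks and 545.2, 390.1 and 577.8 after DEN, a rise of 0.53 (SE 0.15, adjusted p = 0.02814). Its groups are separate by a narrow margin, at the second DEN array. Iigp1 read 7005, 7091 and 7161 against 7741, 9039 and 8944, a rise of 0.27 (SE 0.08, adjusted p = 0.03526). With quantile values the Iigp1 difference was 0.16 and did not pass (adjusted p = 0.1758), and its second probe set differed by 0.11. Gbp6 differed by 0.63 (adjusted p = 0.06366).

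Stat2 was the exception among the members. It read 87.4, 101.6 and 90.6 in the knockout at 4 weeks and 44.9, 57.6 and 82.6 after DEN, so the groups do not overlap. Its difference of -0.52 (SE 0.18) did not pass (adjusted p = 0.07566). None of the 5 transcription factors passed in the knockout. Irf9 differed by 0.33 and Irf7 by 0.24, while Irf1, the factor that drives many interferon gamma targets, differed by 0.04.

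In the wild type 4 of 33 members rose from 4 weeks to DEN and none fell in the limma test (8 at an unadjusted p under 0.05, against 19.2%), against 1.97% of tested probe sets that rose and 4.4% in either direction. They were 3 GTPases and Irf9. Ifi47 read 313.2, 327.5 and 420.6 at 4 weeks and 576.9, 532.4 and 453.1 after DEN, a rise of 0.54 (SE 0.11, adjusted p = 0.009229). Irf9 read 97.5, 88.1 and 123.3 against 187.9, 171.3 and 162.0, a rise of 0.68 (SE 0.17, adjusted p = 0.02806). In both genes the DEN arrays are all higher. Irgm1, a regulator of other immunity-related GTPases, read 293.6, 210.2 and 241.1 against 327.3, 346.6 and 328.8, a rise of 0.42 (SE 0.11, adjusted p = 0.04093). Iigp1 read 6151, 5838 and 6255 against 7660, 8301 and 6876, a rise of 0.32 (SE 0.08, adjusted p = 0.02411). It was the 1 member to pass in both genotypes, among 11 that passed in either. Its call was lost in 3 of the 6 fits that leave out an array in the wild type (adjusted p up to 0.1133) and in 5 of 6 in the knockout (up to 0.1352). Irf9 lost its call in 4 of 6 (adjusted p up to 0.1218) and Irgm1 in 5 of 6 (up to 0.1892), while Ifi47 kept it in all 6. Without overlap 6 members stood higher (10.5% of tested probe sets did): these 4, Parp14 and Cxcl9.

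The immunoproteasome differed by only 0.03 to 0.13 in the wild type, and no subunit passed. Psmb9 read 163.8, 174.0 and 161.4 at 4 weeks and 178.6, 143.0 and 223.0 after DEN, with overlap. Cxcl9 read 155.2, 162.1 and 154.9 against 265.8, 226.4 and 228.7, without overlap, and its difference of 0.56 (SE 0.21) did not pass (adjusted p = 0.1452). Usp18 and Igtp differed by 0.44 and 0.39 (adjusted p = 0.09359 and 0.1317). Over the members the median was 0.23 with 29 of 33 positive, beside 0.03 and 54.5% for all tested probe sets. The members' median was 0.14 once each array was centred on its median (all tested probe sets then had a median of -0.06) and 0.16 with a pseudocount of 64. The count of 4 was 0 when only the groups compared were fitted, 1 without wild-type 4-week replicate 2 or wild-type DEN replicate 2, and 2 without wild-type 4-week replicate 3 or wild-type DEN replicate 1. Wild-type 4-week replicate 2 has the highest Gapdh ratio of all arrays, 2.19, and without it and the corresponding knockout array Ifi47 alone passed (0.49, adjusted p = 0.04902). In the knockout the count of 8 was 5 when only the groups compared were fitted and 4 without 4-week replicate 3, DEN replicate 2 or DEN replicate 3. Over the 6 fits that leave out an array, Psmb9, Cxcl9 and Rtp4 kept their calls, while Usp18 lost its call in 2, Psmb10 in 3, and Psmb8 and Igtp in 4.

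**Figure D3:**
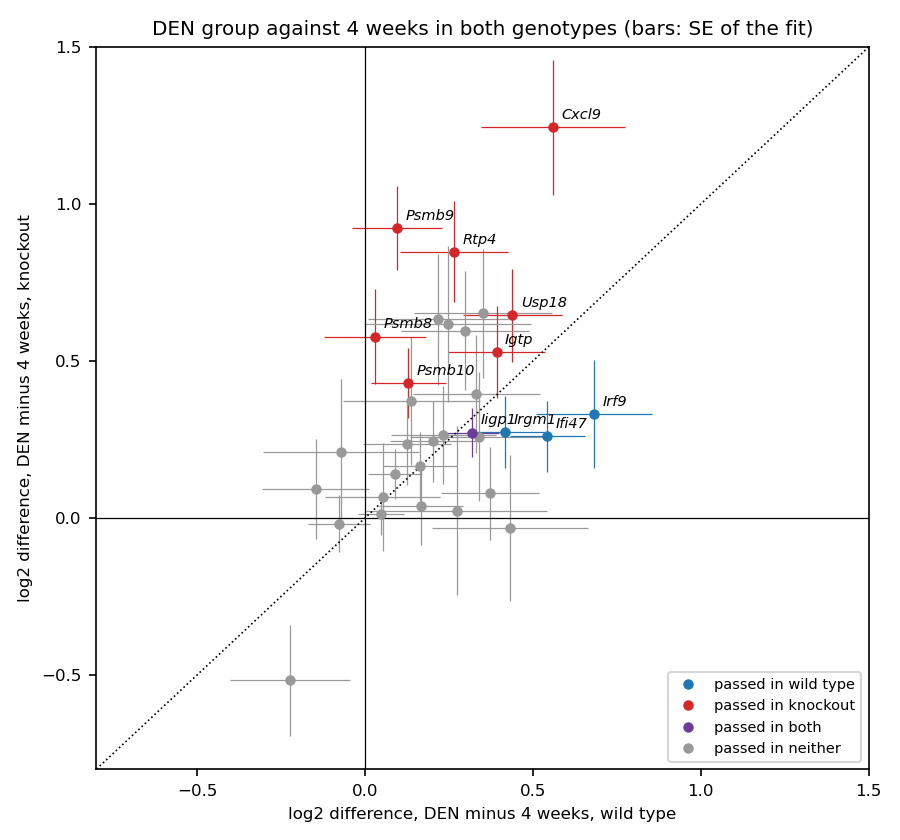
Each point is a member, placed by its log2 difference of DEN minus 4 weeks in the wild type (horizontal) and in the knockout (vertical), with the SE of the fit; the dotted line marks equal differences. Psmb9 lies at 0.10 and 0.92 and Cxcl9 at 0.56 and 1.24, while Irf9 and Ifi47 lie on the wild-type side of the line.

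Whether the 2 genotypes differed in this change was tested directly. Psmb9 alone of the 33 members passed, with a difference between the genotypes' changes of 0.83 (SE 0.19, adjusted p = 0.04238; 0.762% of tested probe sets passed, 0.37% upwards). It had a 95% interval of 0.43 to 1.22. This call was lost in 10 of the 12 fits that leave out an array (0.68 to 0.97, adjusted p from 0.01326 to 0.09456), and when only the groups compared were fitted (adjusted p = 0.1368). Rtp4 at 0.58 (adjusted p = 0.247), Psmb8 at 0.55 (0.2483) and Cxcl9 at 0.68 (0.311) had an unadjusted p under 0.05, so that 4 of 33 did (14% of tested probe sets). Psmb10 stood at 0.30 and Ifi47 at -0.28. For the GTPases the median was -0.05, which is also the median of all tested probe sets. Against saline in place of 4 weeks, no member passed the same test of DEN (1 of 33 at an unadjusted p under 0.05, Psmb9 at 0.54, adjusted p = 0.4716; 0% of tested probe sets passed and 8.03% had such a p).

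Macrophage and Kupffer cell markers moved with the knockout change here as well. Of 17 markers 10 rose from 4 weeks to DEN in the knockout (12 with quantile values) and 0 passed in the wild type (limma; 1 at an unadjusted p under 0.05), and the medians were 0.56 and 0.09. Of all tested probe sets 3.53% rose in the knockout and 4.4% passed in the wild type. In the test of the difference between genotypes 2 of the 17 markers passed (0.762% of tested probe sets did). They were Tyrobp at 1.25 and Lyz2, the macrophage lysozyme, at 1.03. The summed signal of the 17 markers after DEN was 7869 to 10880 in the wild type and 7824 to 11360 in the knockout. Markers of other cells passed as well. The stellate cell marker Dcn rose by 0.46 in the knockout and passed the test between genotypes (0.77, adjusted p = 0.01113). The hepatocyte marker Hnf4a fell by 0.43 in the knockout and passed that test downwards (-0.59, adjusted p = 0.01574). The part of these cells in the Psmb9 and Cxcl9 changes was not tested. Genes that mark T cells and NK cells were near the floor: 5 of 11 T cell markers, Cd3e, Cd4 and Cd8b1 among them, and 7 of 10 NK cell markers stayed below the filter. Of the 3 tested NK cell markers only Klrk1, an activating receptor of NK and T cells, rose in the knockout (1.01, adjusted p = 0.02285). None of the 6 tested T cell markers passed between 4 weeks and DEN in either genotype. Summed T cell markers read 172.2 to 187.0 in the knockout at 4 weeks and 159.6 to 253.0 after DEN, which overlap. In the wild type they read 99.6 to 159.2 and 208.8 to 288.8, without overlap. Summed NK cell markers read 113.8 to 165.1 and 183.2 to 198.2 in the knockout, without overlap, and 116.7 to 158.0 and 142.5 to 184.4 in the wild type, with overlap. The part of T cells and NK cells in the members' changes was not tested.

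**Figure D4:**
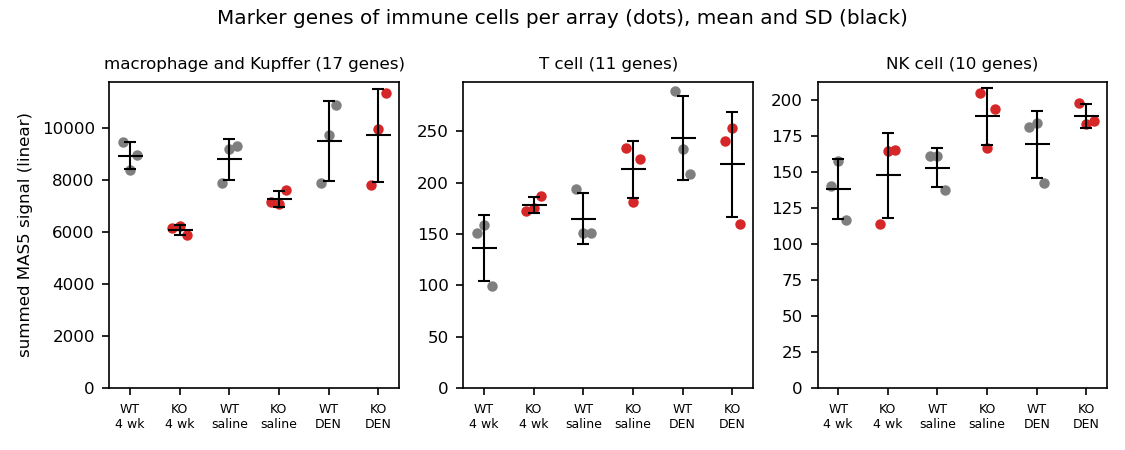
Summed MAS5 signal of the marker genes of macrophages and Kupffer cells, T cells and NK cells on each array (dots; grey, wild type; red, knockout), with the mean and SD of each group. The macrophage sum is lowest on the 3 knockout arrays at 4 weeks, between 5884 and 6227, and the T cell and NK cell sums reach at most 288.8 on any array.

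The comparison of DEN with saline, both at 12 weeks, was dominated by the class I chains on the deposited scale. In the wild type 4 members rose and none fell in the limma test (6 at an unadjusted p under 0.05, against 19.5%), against 3.4% of tested probe sets that rose and 6.54% in either direction. In the knockout 6 rose and none fell (9 at an unadjusted p under 0.05, against 28.4%), against 6.42% and 15.1%. B2m, the light chain, read 11081, 11428 and 13540 after saline and 22420, 22719 and 20497 after DEN in the wild type. The DEN arrays are near the wild-type 4-week arrays, at 20148, 20054 and 21407, and the saline arrays stand far below both. B2m rose by 0.87 in the wild type and by 0.83 in the knockout (SE 0.08 each; adjusted p = 2.063e-07 and 3.076e-07). H2-K1 rose by 0.66 and 0.64, H2-D1 by 0.39 and 0.45, and Iigp1 by 0.38 and 0.43 in wild type and knockout. The H2-D1 call in the wild type was lost in 4 of the 6 fits that leave out an array (adjusted p up to 0.1639).

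After quantile normalization these differences were much smaller or turned. B2m was then -0.09 in the wild type and -0.18 in the knockout, and Iigp1 was -0.04 and -0.08. H2-K1 was 0.19 and 0.16, and none of these genes passed in either genotype. On that scale no member passed in the wild type (3.64% of tested probe sets did). In the knockout 4 passed against 10.9%: Psmb9 at 0.65, Cxcl9 at 0.94, Psmb10 at 0.38 and Ifit1 at 0.64. Psmb9 and Cxcl9 thus passed on both scales in the knockout. On the deposited scale Psmb9 rose by 0.56 (SE 0.13, adjusted p = 0.006462) from 124.2, 129.7 and 148.9 after saline to 224.2, 191.1 and 201.5 after DEN. Cxcl9 rose by 0.86 (SE 0.21, adjusted p = 0.008928), from 147.3, 243.7 and 135.2 to 409.1, 284.6 and 284.8. All DEN arrays are above all saline arrays in both genes. The Cxcl9 call was lost without DEN replicate 1, saline replicate 1 or saline replicate 3 (0.69 to 1.10 and adjusted p up to 0.06184 over the 6 fits that leave out an array). A second Cxcl9 probe set stood at -0.13 (adjusted p = 0.7597). In the knockout, 6 of 17 macrophage markers rose between saline and DEN (5 with quantile values). On the deposited scale 6.42% of all tested probe sets rose there. Lyz2 rose by 0.74 and Clec4f, a Kupffer cell lectin, by 0.44.

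**Figure D5:**
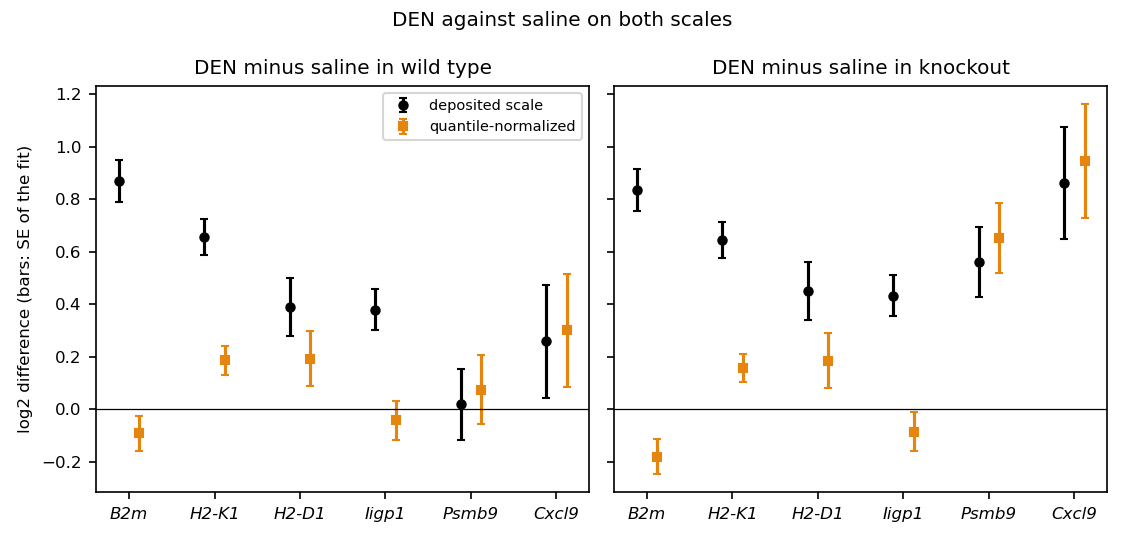
Log2 differences of DEN minus saline with the SE of the fit for 6 members on the deposited scale (black circles) and after quantile normalization (orange squares), in the wild type (left) and the knockout (right). B2m moves from 0.87 to -0.09 in the wild type between the scales, whereas Psmb9 and Cxcl9 in the knockout stay between 0.56 and 0.94.

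Saline against 4 weeks, again with age and injection joined, gave 2 rises and 2 falls in each genotype (8 and 11 of 33 at an unadjusted p under 0.05, against 20.6% and 23.4% of tested probe sets). In the wild type 8.26% of tested probe sets passed, 4.22% upwards and 4.04% downwards, and in the knockout 9.94% did, 5.09% and 4.84%. B2m fell by 0.78 in the wild type and by 0.69 in the knockout, and H2-K1 fell by 0.61 and by 0.63. With quantile values B2m was 0.14 and 0.25 and H2-K1 was -0.15 and -0.20, and on that scale B2m rose and H2-K1 fell in the knockout. Iigp1 rose in both genotypes there (0.32 and 0.25), against -0.06 and -0.16 on the deposited scale. The rises were Irf9 (0.62, adjusted p = 0.02755) and Irgm1 (0.40, adjusted p = 0.03415) in the wild type. With quantile values they were 0.56 (adjusted p = 0.07496) and 0.34 (adjusted p = 0.09768), and neither passed. Irf9 lost its call in 5 of the 6 fits that leave out an array (adjusted p up to 0.1138) and Irgm1 in 4 of 6 (up to 0.1984). In the knockout the rises were Usp18 (0.70, adjusted p = 0.003314) and Rtp4 (0.59, adjusted p = 0.02202), and both passed with quantile values as well (0.64 and 0.56, adjusted p = 0.01058 and 0.03576). Usp18 kept its call in all 6 fits that leave out an array, while Rtp4 lost it in 5 of 6 (adjusted p up to 0.08518). The second Rtp4 probe set stood at -0.03 (adjusted p = 0.9528). Irf9 read 162.6, 178.7 and 155.0 after saline in the wild type, close to its 187.9, 171.3 and 162.0 after DEN. Usp18 read 159.5, 148.4 and 175.8 after saline in the knockout and 139.5, 171.7 and 153.4 after DEN. For these genes, then, the saline and DEN arrays overlap and both lie above the 4-week arrays. Psmb9 in the knockout read 124.2, 129.7 and 148.9 after saline, between its 4-week and its DEN arrays (0.36 over 4 weeks, adjusted p = 0.09468).

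Of the 33 members 19 passed in none of the 9 comparisons between 2 groups. They comprised 8 of the 10 effectors, 4 of the 5 transcription factors, Gbp2, Gbp3 and Gbp6, all 3 peptide-loading genes and Cxcl10. Tapbp was the steadiest: its signal ran from 861.9 to 1061 over the 18 arrays and its differences from -0.11 to 0.07. Irf1 ran from 285.1 to 447.1, with differences of -0.03 to 0.17. Rsad2, the antiviral enzyme viperin, ran from 136.6 to 366.9, and its 2 highest arrays, wild-type saline replicate 1 and wild-type DEN replicate 1, were of different treatments. Oas1a, an RNA-sensing synthetase, had only positive differences, 0.02 to 0.27. Ifit2 and Oasl2 read as low as 13.5 and 17.6, close to the constant of 16 added before the logarithm, so their folds are compressed.

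The other genes of the pathway are given from lists of known function. Among 42 other interferon-stimulated genes, 6 rose and 1 fell from 4 weeks to DEN in the knockout and 1 rose in the wild type. The medians were 0.11 and 0.18. Of all tested probe sets 3.53% rose and 4.71% fell in the knockout, and 1.97% rose in the wild type. With quantile values 8 of these genes rose and 1 fell in the knockout, and 3 rose in the wild type. Ifi27 rose in both (0.63 and 0.49), and Mx2, an antiviral GTPase, fell by 1.21 in the knockout. Of 12 nucleic acid sensing genes, the RNA sensors Ddx58 (0.67) and Ifih1 (0.37) and the sensor of Z-form nucleic acid Zbp1 (0.998) rose in the knockout. Ifih1 had fallen by 0.39 in the knockout at 4 weeks (adjusted p = 0.04871). Among 16 ligands, receptors and kinases, Socs3, the feedback inhibitor of JAK kinases, rose by 1.28 and the receptor chain Ifnar2 by 0.31 in the wild type. Irf2, a repressor of interferon targets, fell by 0.64 in the knockout. The ligand genes Ifna4, Ifnb1 and Ifng stayed below the filter.

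Class II genes were tested for 11 genes, of which Ifi30, Ctss and H2-Aa rose from 4 weeks to DEN in the knockout (0.67, 0.57 and 0.53) and none passed in the wild type (limma; 1 at an unadjusted p under 0.05). Of all tested probe sets 3.53% rose in the knockout, while 4.4% passed and 19.2% had such a p in the wild type. Ifi30 and Ctss encode enzymes that prepare peptides for class II molecules in macrophages and other antigen-presenting cells. Of 14 further class I genes, such as heavy chains of other loci and constitutive proteasome subunits, none passed in either genotype in that comparison (limma; 3 in the wild type and 5 in the knockout at an unadjusted p under 0.05). Of all tested probe sets 19.2% in the wild type and 23.3% in the knockout had such a p. Between saline and DEN 6 of the 14 rose in the knockout on the deposited scale, where 6.42% of tested probe sets rose. With quantile values 4 rose, where 10.9% of tested probe sets passed in either direction. H2-Q10 went from 0.52 to -0.05 between the scales, while Psmb7, Fcgrt and Psmb6 passed on both. Psmb7, a constitutive proteasome subunit, rose by 1.14 (1.15 with quantile values), Fcgrt by 0.51 (0.49) and Psmb6 by 0.37 (0.30). Psmb7 also rose in the wild type, by 0.45 (0.50 with quantile values).

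Other probe sets of the same genes give a measure of how far a value rests on the choice of probe set. For the member values that passed, 39 values came from further probe sets, of which 25 had the same sign. Of the 39, 12 passed too, 9 with the same sign and 3, all of H2-D1 or H2-K1, with the opposite sign. The second B2m probe set followed the first in all 4 comparisons with saline arrays (0.97 and 0.94 for DEN over saline). H2-K1 and H2-D1 are read here by probe sets of the type that can bind both genes. Their other probe sets split in direction. For H2-K1, saline minus 4 weeks in the knockout, the chosen one (mean log2 of 12.99) fell by 0.63. A dimmer one (mean log2 of 7.66) rose by 1.08 there. The changes of these heavy chains are uncertain for that reason.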

How the data were processed

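Total RNA of mouse liver was hybridised to 18 Affymetrix Mouse430_2 arrays. The deposited values are MAS5 intensity on a linear scale, per the submitters' processing notes (version not given) and the values themselves; the trimmed mean (2% off each end) was 150.0 on every array. The genome build behind the probe sets is not given in the sources used here. From these intensities log2(intensity + 16) was taken, 64 control probe sets were left out, and the 27022 probe sets whose mean reached the 40th percentile or more were tested. Probe sets were named through the platform annotation: 34945 had 1 gene symbol, 932 several and 9160 none, and probe sets with several named no gene. R 4.3.3 with limma 3.58.1 fitted 1 coefficient per group over all 6 groups (12 residual degrees of freedom), with an intensity trend. The 11 contrasts were two-sided, with Benjamini-Hochberg adjustment over all tested probe sets and a threshold of 0.05; "rose", "fell" and "passed" mean that threshold. Differences and folds are on the log2(signal + 16) scale, which compresses low signals. The fit was tested on simulated data, and the outcome is not given here. Array number, 3 per group, limits the precision.

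Each member is described, and in each contrast the values are given of those that passed and, where fewer than 6 passed, of those with the smallest p. Members and lists were chosen with earlier results of these data known. Other pathway genes are given by counts, with up to 4 that passed. Alternatives were pseudocounts, filters, normalizations, probe set choice, no trend, fewer groups, a replicate block and leaving out arrays; the quantile counts of the pathway and cell lists were added after the data were seen. Replicate numbers do not pair the samples.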

Additional observations from a re-analysis of the deposited data

Results flagged for a closer look

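Psmb9 changed differently in the 2 genotypes between 4 weeks and DEN, by the test of that difference itself: 0.83 on the log2 scale (SE 0.19, adjusted p = 0.04238). It was higher by 0.92 in the knockout and by 0.10 in the wild type. All 3 knockout arrays at 4 weeks were the lowest of the 18, and the adjusted p ranged from 0.01326 to 0.1368 over the alternatives.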

How the results depend on the processing

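Of 68 member values followed, 1196 values under alternatives kept direction and side of the threshold, 146 lost the threshold, 9 gained it and 9 changed sign. Where no value below shows it, the cause was not tested. Sign changes with quantile normalization were B2m, DEN minus saline (-0.18 knockout, -0.091 wild type) and saline minus 4 weeks (0.25 and 0.14), and Iigp1, DEN minus saline (-0.084 and -0.042). With a gene's probe sets averaged, H2-D1 was -0.072 (DEN minus saline, knockout) and H2-K1 was 0.031 (saline minus 4 weeks, knockout). With centred array medians Iigp1 was -0.0085 (knockout minus wild type, saline). Centring array medians moved the median of all probe sets most between the genotypes with saline (0.04 to -0.09) and in the genotype difference of DEN against saline (-0.05 to 0.13).

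Counts that moved are given for DEN minus 4 weeks first. In the knockout 8 rises became 5 with centred medians, with the contrast's groups alone or without the 6 saline arrays, and 4 with no trend. In the wild type 4 became 2 with centred medians or no filter, 1 with no trend, without the 6 saline arrays or without the 4-week arrays of highest Gapdh ratio, and 0 with the groups alone. The 1 call of the genotype difference (DEN against 4 weeks) became 0 with centred medians, the groups alone, no filter, no trend, or without the saline or the highest-Gapdh arrays. The 1 fall in the knockout at 4 weeks became 0 without the highest-Gapdh arrays. For DEN minus saline in the wild type 4 became 2 with cyclic loess, the mean of all probe sets, or without _x_at and _s_at probe sets, and 0 with quantile normalization. For saline minus 4 weeks in the knockout 2 falls became 1 under each of those 4 settings. There 2 rises became 1 with centred medians, no trend or without the highest-Gapdh arrays, and 4 with a filter at the 60th percentile or quantile normalization. In the wild type 2 falls became 1 with the mean of all probe sets or without _x_at and _s_at, and 0 with quantile normalization. There 2 rises became 1 with centred medians, cyclic loess, the groups alone, quantile normalization or without the highest-Gapdh arrays, and 0 with no trend.

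Without 1 array at a time, rises ranged from 4 to 8 and falls from 0 to 1 in the knockout, DEN minus 4 weeks, and rises from 1 to 3 in the wild type. The genotype difference of DEN against 4 weeks gave 0 to 1 and the fall in the knockout at 4 weeks 0 to 1. DEN minus saline gave 5 to 7 rises in the knockout and 3 to 4 in the wild type. Saline minus 4 weeks gave 1 to 2 rises in the knockout, and 0 to 2 rises and 2 to 3 falls in the wild type. The median over the members ranged from 0.06 to 0.16 (DEN minus saline, wild type). The setting without _x_at and _s_at gave no H2-K1 value.

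The replicate block, with the number taken as a pair, gave 0 in place of 1 for the genotype difference of DEN against 4 weeks (Psmb9, adjusted p = 0.05043). Iigp1 lost its call in the knockout, DEN minus 4 weeks (adjusted p = 0.05001), and Psmb8 gained one for saline minus 4 weeks (0.47, adjusted p = 0.04201). Same-numbered arrays did not deviate together: 45 correlations ran from -0.10 to 0.12, and 2 were over 0.1.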

Other observations

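The probe set that carries Tgtp1, an interferon-inducible GTPase, together with Tgtp2 differed by 0.65 (SE 0.18, adjusted p = 0.02541) between 4 weeks and DEN in the knockout. In the wild type it differed by 0.29 (adjusted p = 0.3812). The probe set shared by Isg15, the ubiquitin-like modifier, and Gm9706 differed by -0.03 and 0.02 in the same comparisons. Neither value can be given to 1 gene.

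Irf8 in the wild type was lower on every saline array than on every 4-week array (-0.38), whereas in the knockout every saline array was higher (0.13). The difference between these changes, fitted after the data were seen, was 0.51 (SE 0.22, adjusted p = 0.9989) and did not pass; 1 of 33 members had an unadjusted p under 0.05 in that test, and 0.0037% of tested probe sets passed.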
